A study of Mus musculus with 2 samples.

Results

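The 10 genes described here are the ID proteins Id1, Id2 and Id3, the SMAD proteins Smad1, Smad3, Smad4, Smad5, Smad6 and Smad7, and the ligand gene Tgfb1. They were chosen by name: every non-control probe that the array files annotate with 1 of these symbols was taken, which gave 14 probes for 10 of the 36315 genes or intervals on the array. Both arrays compared ESlncRNA with vector. The ESlncRNA RNA came from erythroid progenitors that were transduced with this long noncoding RNA (also known as lincRNA-EPS), and the vector RNA from progenitors that received the vector. All cells were lineage-negative fetal liver cells of C57BL/6 mouse embryos (stage E14.5), sorted after transduction for the GFP marker. Each of the 2 arrays gave 1 ratio of ESlncRNA (Cy5) over vector (Cy3) per probe, in the same dye orientation, so any dye bias of a probe is in both ratios. The labels do not state whether replicates 1 and 2 are different cultures or embryos, so the p-values measure only how far 2 arrays differ, which could be technical. In RNA from bulk cells, fewer cells of a type and less RNA per cell cannot be told apart.

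ID proteins are helix-loop-helix proteins without a DNA-binding region. They pair with E proteins such as those made by Tcf3, Tcf4 and Tcf12 and keep them, and partners of theirs such as TAL1 in blood cells, from binding E-box DNA. BMP ligands signal through SMAD1, SMAD5 and SMAD9, and TGF-beta and activin through SMAD2 and SMAD3. Both branches share SMAD4, are held back by the inhibitory SMAD6 and SMAD7, and act on target genes among which ID and inhibitory SMAD genes are well known.

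The promoters of Id2, Id3 and Smad6 are shown because these genes are textbook targets of BMP signalling and were all lower in ESlncRNA cells. They run from 250 bases before to 30 after the annotated start, 5′ to 3′ on the gene's strand, with 1 kind of motif in capitals each. The sequences are RefSeq's, on GRCm38.p6, where 7 of the 10 genes had an entry. Capitals mark GGCGCC, the GC-rich BMP element, in Id2 (chromosome 12, reverse strand). They mark CAGAC, the SMAD box, on either strand in Id3 (chromosome 4, forward strand), and GTCTAGAC, the SMAD palindrome, in Smad6 (chromosome 9, reverse strand).
Id2 promoter, chr12:25096063-25096342: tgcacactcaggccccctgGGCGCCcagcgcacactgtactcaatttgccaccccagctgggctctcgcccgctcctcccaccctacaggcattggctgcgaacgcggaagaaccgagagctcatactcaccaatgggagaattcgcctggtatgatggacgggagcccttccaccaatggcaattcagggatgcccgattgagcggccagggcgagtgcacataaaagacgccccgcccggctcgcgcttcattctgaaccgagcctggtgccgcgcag
Id3 promoter, chr4:136143572-136143851: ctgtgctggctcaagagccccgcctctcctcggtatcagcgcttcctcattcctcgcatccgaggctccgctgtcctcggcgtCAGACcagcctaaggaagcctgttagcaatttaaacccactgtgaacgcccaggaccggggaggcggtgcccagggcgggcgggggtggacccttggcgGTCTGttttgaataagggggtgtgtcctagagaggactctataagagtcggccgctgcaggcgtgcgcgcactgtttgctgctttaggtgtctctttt
Smad6 promoter, chr9:64022030-64022309: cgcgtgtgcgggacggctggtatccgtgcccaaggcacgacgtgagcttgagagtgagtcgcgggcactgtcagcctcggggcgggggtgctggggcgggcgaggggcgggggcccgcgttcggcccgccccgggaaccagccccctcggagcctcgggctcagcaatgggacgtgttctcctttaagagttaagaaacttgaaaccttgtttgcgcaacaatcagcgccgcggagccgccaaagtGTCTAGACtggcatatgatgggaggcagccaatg

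On both strands, the same 4 motifs were searched in all 32851 promoters of that length. GTCTAGAC was in 0.192% of them, GGCGCC in 10.9%, CAGAC in 46.8% and the E-box CANNTG in 70.1%. The Smad6 window held 1 SMAD palindrome that spans the start, from 4 bases before it to 4 after it, and 1 E-box after the start. The Id2 window held 1 GGCGCC, whose first base lies 231 bases before the start, and 1 E-box at 196 bases before it. The Id3 window held 2 SMAD boxes, 167 and 68 bases before the start, and no match to the other motifs. None of the 4 motifs was found in the windows of Smad1, Smad3 and Tgfb1. Smad5 has 3 annotated starts, of which 2 with overlapping windows held GGCGCC and an E-box and the other a SMAD box. None of the motifs contains another, and each match is a description of letters and not of a bound site.

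Of the probes, those of Id3 and Tgfb1 and the dimmer Smad1 probe are shown as examples of what was measured, since all 3 read coding sequence. The Id3 probe covers 60 bases that lie within 175 bases of mm9, and so it reads across a splice junction.
Id3 probe, chr4:135700075-135700249: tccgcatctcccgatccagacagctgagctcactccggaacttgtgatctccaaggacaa
Tgfb1 probe, chr7:26489877-26489936: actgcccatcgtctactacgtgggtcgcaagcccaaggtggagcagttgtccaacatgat
Smad1 probe, chr8:81880234-81880293: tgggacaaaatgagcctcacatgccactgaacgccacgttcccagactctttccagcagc

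With loess normalisation all 10 genes were lower in ESlncRNA cells than in vector cells, a direction that Smad3, Smad4 and Tgfb1 lost with median centring (below). Each passed the test (limma, adjusted p under 0.05 over all 26790 probes tested), and 0 were higher. Over all 19870 genes tested, 36.8% were lower and 26.3% higher by the same test. The median log2 ratio was -0.88 over the 10 genes and -0.03 over all genes tested. With both channels required above background, which leaves out Smad1 and Smad6, the medians were -0.66 over 8 genes and -0.0048 over all 17236 tested. With loess, Id1, Id2 and Id3 were at least 2-fold lower on both arrays, a size that Id3 missed with median centring (-0.92 and -0.77). The measured ratio of Smad1 passed that size too, but its bound of 1.82-fold (below) does not reach it. By measured ratio, 8.10% of all genes tested were at least 2-fold lower on both arrays. For the brightest probe of each of the 10 genes, both ESlncRNA intensities were below both vector intensities, as they were for 41.6% of all genes tested. Ranked from the lowest ratio, the 10 genes stood between the 1.89 and 20.7 percentiles of all genes tested. Smad1 and Smad6 entered the test through the vector signal alone, since their ESlncRNA signal was not well above background on either array. For these 2 the fold is therefore a bound, obtained by dividing the vector mean by the dim signal or, where larger, by the smallest signal that counts as detected on the array.

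**Figure D1:**
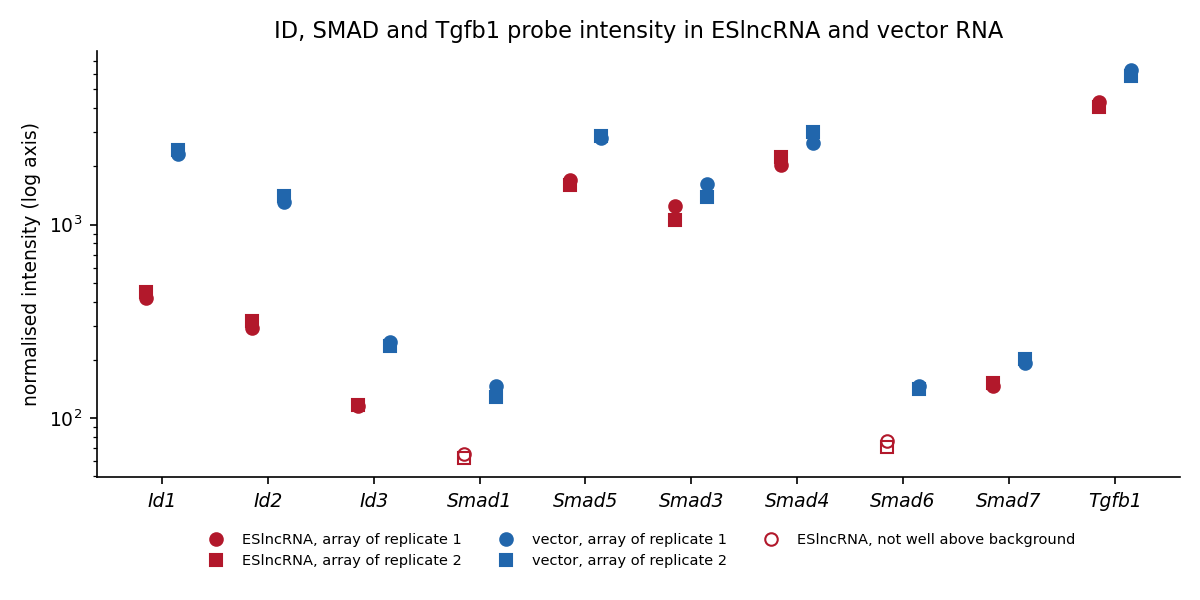
Normalised intensity (log axis) of the brightest probe of each gene in ESlncRNA RNA (red) and vector RNA (blue) on the arrays of replicates 1 (circles) and 2 (squares), with open points not well above background. Every ESlncRNA point lies below both vector points of the same gene, which held for 41.6% of all genes tested, with the widest gap at Id1 (418 and 448 against 2326 and 2418); levels of different probes cannot be set against each other.

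Id1 is the ID gene most widely used as a readout of BMP signalling. Its probe, in NM_010495 on chromosome 2 (chr2:152563083-152563142, mm9), had normalised intensities of 418 and 448 in ESlncRNA RNA, against 2326 and 2418 in vector RNA. The groups lay far apart on both arrays. The log2 ratios were -2.48 and -2.43, with a mean of -2.46 ± 0.032 (SD, n = 2 arrays), which is 5.48-fold lower (limma adjusted p = 1.54e-07). Id1 ranked 376 of 19870 genes from the lowest ratio.

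Id2, which also binds the retinoblastoma protein, followed with nearly the same ratio on both arrays. The probe lies in NM_010496 (chr12:25778904-25778963, mm9, reverse strand) and gave 294 and 317 in ESlncRNA RNA, against 1308 and 1405 in vector RNA. The mean log2 ratio was -2.15 ± 0.0029 (SD, n = 2 arrays), or 4.44-fold lower, with a limma adjusted p of 2.31e-07. The difference was far larger than the spread between arrays.

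Id3 fell by less than Id1 and Id2. Its probe (NM_008321, sequence above) gave 115 and 117 in ESlncRNA RNA, against 247 and 236 in vector RNA. The log2 ratios of -1.10 and -1.02 averaged -1.06 ± 0.062 (SD, n = 2 arrays), 2.08-fold lower (limma adjusted p = 6.79e-06). The probe of the other ID gene, Id4, was not well above background in ESlncRNA or vector RNA on any array, and was not tested.

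Smad1 encodes a receptor-activated SMAD of the BMP branch and was read by 2 probes of NM_008539 on the reverse strand of chromosome 8 (mm9), 17219 bp apart. The brighter one, chr8:81863015-81863074, gave 64.9 and 62.3 in ESlncRNA RNA, against 147 and 128 in vector RNA. The ESlncRNA spots were barely above their surroundings, with mean signals of 55.5 and 57.2 over a local background of 50 and 52. The log2 ratio was -1.11 ± 0.093 (SD, n = 2 arrays, limma adjusted p = 7.61e-06), and the RNA was at least 1.82-fold lower. The other probe, shown above, gave 77.6 and 77.1 in ESlncRNA RNA, against 96.0 and 86.5 in vector RNA. Its log2 ratio was -0.24 ± 0.10 (SD, n = 2 arrays, limma adjusted p = 0.0101), at least 1.18-fold lower. Neither probe was well above background in ESlncRNA RNA, so both entered the test through the vector signal alone, and the sizes of their ratios cannot be compared.

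Smad5, the second BMP-branch SMAD, was read far above background by its brighter probe. That probe, in NM_001164041 at chr13:56843578-56843637 (mm9), gave 1703 and 1612 in ESlncRNA RNA, against 2815 and 2890 in vector RNA. The log2 ratio was -0.78 ± 0.082 (SD, n = 2 arrays), 1.72-fold lower (limma adjusted p = 3.55e-05). The dimmer probe, whose start lies 4666 bp away, gave 160 and 156 in ESlncRNA RNA, against 181 and 156 in vector RNA. It did not pass (-0.09 ± 0.12, limma adjusted p = 0.231), so the fall of Smad5 rests on 1 of its 2 probes. Smad9, which completes the BMP branch, was not well above background in ESlncRNA or vector RNA on any array.

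Smad3 carries TGF-beta and activin signals and had the smallest change of the 10 genes. Its brighter probe (chr9:63494574-63494633, mm9) gave 1244 and 1062 in ESlncRNA RNA, against 1625 and 1390 in vector RNA. The log2 ratio of -0.39 ± 0.0026 (SD, n = 2 arrays) is 1.31-fold lower (limma adjusted p = 5.88e-04). This probe gave lower values on the array of replicate 2 in both channels, with nearly the same ratio. The other Smad3 probe was not tested, as neither channel was well above background on both arrays, and its ratios were 0.07 and 0.05. Smad2, the partner of SMAD3 in this branch and not among the 10, gave log2 ratios of -0.36 and -0.08 (limma adjusted p = 0.0409), and its mean turned positive with median centring and with Agilent's processed signals.

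**Figure D2:**
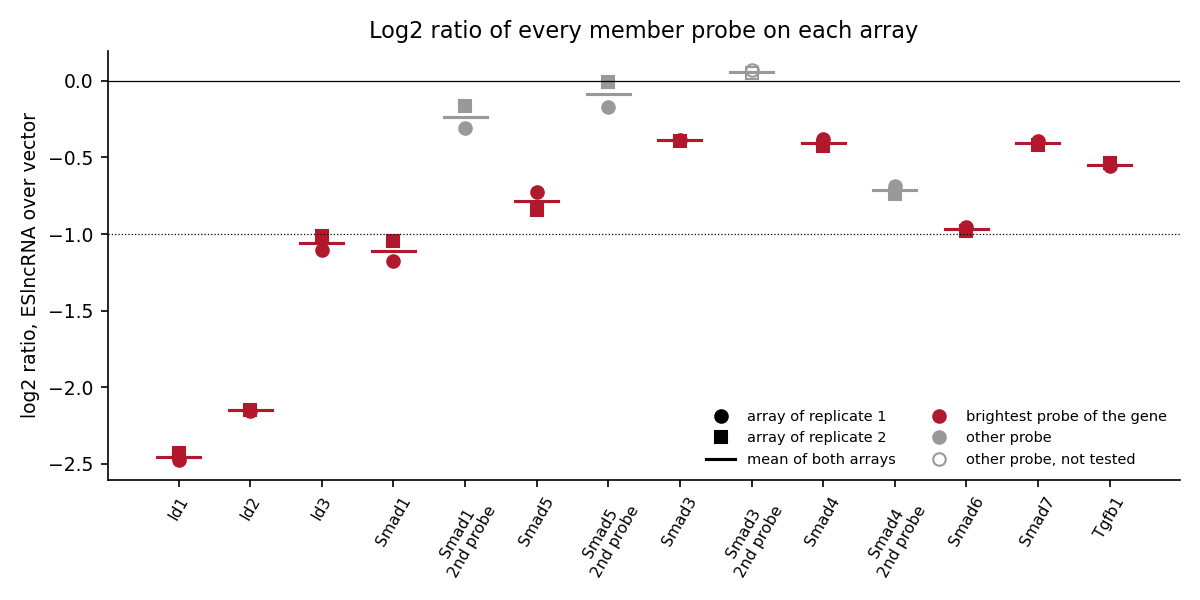
Log2 ratio of ESlncRNA over vector for all 14 probes on the arrays of replicates 1 (circles) and 2 (squares), with the mean of both arrays as a bar and 2-fold lower as a dotted line. The widest gap between the 2 arrays is at the dimmer Smad5 probe (-0.17 and -0.0041). The 2 probes of Smad3, Smad4 and Smad5 differ from each other, and both Smad1 probes were not well above background in ESlncRNA RNA.

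Smad4, the common partner of both branches, was lower by both of its probes on chromosome 18, which lie 998 bp apart. The brighter probe (chr18:73798670-73798729, mm9) gave 2041 and 2235 in ESlncRNA RNA, against 2653 and 3007 in vector RNA. Its log2 ratio was -0.40 ± 0.035 (SD, n = 2 arrays), 1.32-fold lower with a limma adjusted p of 5.42e-04. The second probe gave 897 and 890 in ESlncRNA RNA, against 1442 and 1486 in vector RNA. That is 1.64-fold lower (-0.71 ± 0.039, SD, n = 2 arrays, limma adjusted p = 3.79e-05), a larger fall than at the brighter probe.

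Smad6, the inhibitory SMAD that acts mainly on BMP signalling, had a weak signal throughout. Its probe in NM_008542 (chr9:63800980-63801039, mm9) gave 75.9 and 71.2 in ESlncRNA RNA, against 147 and 141 in vector RNA. The log2 ratio was -0.97 ± 0.019 (SD, n = 2 arrays, limma adjusted p = 7.86e-06), and the RNA was at least 1.90-fold lower. Smad7 inhibits both branches, and its probe (chr18:75555371-75555430, mm9) gave 147 and 151 in ESlncRNA RNA, against 193 and 202 in vector RNA. It was 1.32-fold lower (-0.40 ± 0.017, SD, n = 2 arrays, limma adjusted p = 5.00e-04). Smad7 was well above background in ESlncRNA RNA and Smad6 was not.

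Tgfb1 encodes the ligand TGF-beta 1, known as a growth inhibitor of blood progenitors. Its probe, shown above, gave 4288 and 4037 in ESlncRNA RNA, against 6292 and 5864 in vector RNA. The log2 ratio was -0.55 ± 0.010 (SD, n = 2 arrays), 1.46-fold lower (limma adjusted p = 1.20e-04). This probe was printed in 10 spots per array. Log2 ratios ran from -0.67 to -0.38 over 10 unmarked spots on the array of replicate 1 and from -0.60 to -0.49 over 9 on that of replicate 2. Every unmarked spot was thus lower in ESlncRNA RNA.

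The sizes, and for the genes of smaller change the direction, depended on how the 2 channels were scaled. With median centring in place of loess, the median of all genes moved to 0.34 and the split of calls turned to 3633 lower and 12511 higher, against 7305 lower and 5223 higher with loess. With Agilent's processed signals that median was 0.11, with 4700 lower and 6818 higher. Id1 was at -2.0 with median centring and at -2.38 with processed signals, and Id2 at -1.74 and -2.16. Smad3, Smad4 and Tgfb1 turned to 0.094, 0.14 and 0.072 with median centring and did not pass there (limma adjusted p = 0.300, 0.115 and 0.430). Relative to the median of all genes they were then at -0.24, -0.20 and -0.27. Smad3 also missed the threshold with processed signals (-0.20, limma adjusted p = 0.0548). For the dim probes of Smad1 and Smad6, processed signals gave -3.77 and -2.62, far larger than the -1.11 and -0.97 above.

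Median centring moved bright probes most. With median centring, the median log2 ratio was 0.02 in the dimmest and 0.78 in the brightest of 5 equal bins of 3974 genes. With loess the 5 medians lay between -0.06 and -0.0042, and with processed signals between 0.0096 and 0.23, highest in bins 2 and 3. The 6 housekeeping genes ran from 0.22 to 1.0 with loess, from 0.93 to 2.15 with median centring and from -0.11 to 0.69 with processed signals. Smad3, Smad4, Smad5 and Tgfb1 were in brightness bin 4 of 5, Id1 and Id2 in bin 3, Id3 and Smad7 in bin 2, and Smad1 and Smad6 in bin 1, the dimmest.

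**Figure D3:**
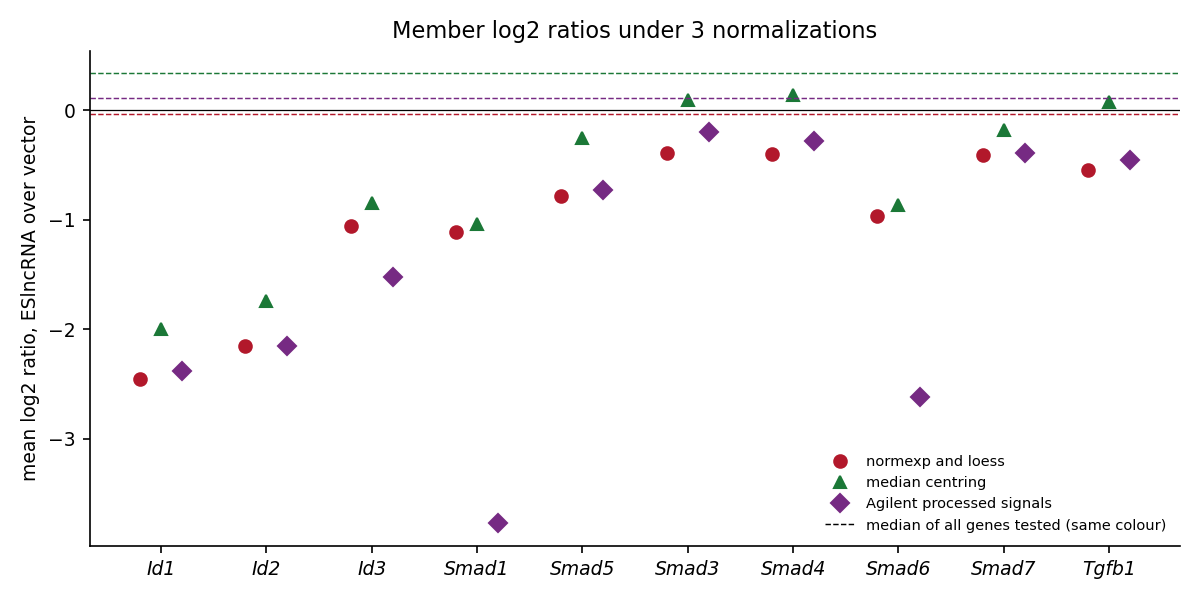
Mean log2 ratio of ESlncRNA over vector of each gene under normexp and loess, median centring and Agilent's processed signals, with the median of all genes tested as a dashed line of the same colour. Id1, Id2, Id3, Smad1 and Smad6 stay at or below -0.84 under each, while Smad3, Smad4 and Tgfb1 lie above 0 with median centring.

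The other genes of the pathway were taken from 6 lists that hold 165 genes, of which 120 were tested. Of these, 68 were lower, 26 were higher and 26 did not pass, with a median log2 ratio of -0.21. Over all 19870 genes tested, 36.8% were lower and 26.3% higher, with a median of -0.03. With median centring 44 pathway genes were lower and 51 higher, against 3633 and 12511 of all genes. The balance of directions over the pathway thus depended on the scaling. In ESlncRNA RNA, 4 ligands, 4 receptors, 4 extracellular modulators, 3 SMAD cofactors and 3 targets were not well above background on either array. These entered the test through the vector signal alone. When both channels had to be above background, 51 pathway genes were lower and 26 higher, against 5904 and 5008 of all 17236 genes tested that way. Ligands were then 3 lower and 3 higher, receptors 5 and 2, modulators 8 and 2, cofactors 12 and 9, and targets 17 and 4. Of the 120, 20 passed the 2-fold size in the lower direction on each array, and 1 was at least 2-fold higher. Over all genes tested, 8.10% were at least 2-fold lower, and the share at least 2-fold higher was not taken.

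Among ligands, 14 of 33 genes were tested, and 8 were lower and 3 higher (median -0.27, and 6 lower and 6 higher with median centring). Inhba, a subunit of activin, had 83.6 and 74.5 in ESlncRNA RNA, against 265 and 230 in vector RNA, which is 3.13-fold lower (-1.65 ± 0.026, SD, n = 2 arrays). Its log2 ratio was -1.47 with median centring and -3.14 with processed signals, so the size depended on the processing. Tgfb3 was at least 1.85-fold lower. Lefty1, an antagonist of NODAL, was 1.80-fold higher (0.85 ± 0.046). Bmp1, a metalloprotease and no BMP ligand by structure, was 1.60-fold lower by its brightest probe, but 1 of its 3 probes tested was called higher. Bmp4, chosen after its values were seen because it is known for acting on red cell progenitors, had 77.7 and 73.7 in ESlncRNA RNA, not well above background, against 93.4 and 96.3 in vector RNA, and was at least 1.23-fold lower (limma adjusted p = 0.00220).

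Receptors were tested for 15 of 19 genes, with 9 lower and 2 higher (median -0.21, and 7 lower and 5 higher with median centring). The activin receptor Acvr1b was 3.52-fold lower (-1.82 ± 0.058, SD, n = 2 arrays), with 234 and 229 in ESlncRNA RNA, against 801 and 832 in vector RNA. The type II TGF-beta receptor Tgfbr2 was 2.33-fold lower (-1.22 ± 0.022). The BMP type I receptor Acvr1 and the activin type II receptor Acvr2b were lower as well (-1.25 ± 0.069 and -1.17 ± 0.060). Further receptors were picked after their values were seen, to complete the main receptor pairs. Tgfbr1 was 2.08-fold lower (limma adjusted p = 1.24e-05), Bmpr1a was at least 1.16-fold lower (adjusted p = 0.00956) and Bmpr2 did not pass (0.01 ± 0.11, adjusted p = 0.926).

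Extracellular modulators, which bind or release ligands, were tested for 18 of 23 genes, and 13 were lower and 2 higher (median -0.53, and 12 lower and 3 higher with median centring). Thbs1, which releases TGF-beta from its latent form and is also a platelet protein, was 6.02-fold lower, with 453 and 418 in ESlncRNA RNA, against 2618 and 2621 in vector RNA. Fstl1 was 5.29-fold lower (-2.40 ± 0.0061, SD, n = 2 arrays). Nrros, which holds latent TGF-beta 1 on myeloid cells, was 3.62-fold lower, and the activin-binding Fstl3 2.40-fold lower. All 4 were lower on both arrays and under each scaling.

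SMAD cofactors and ubiquitin ligases were tested for 32 of 34 genes, with 14 lower and 9 higher (median -0.01, and 4 lower and 20 higher with median centring). That loess median is close to the -0.03 of all genes tested, of which 36.8% were lower and 26.3% higher. The phosphatase Ppm1h was 3.50-fold lower (-1.81 ± 0.20, SD, n = 2 arrays) and the ubiquitin ligase Nedd4l 2.18-fold lower. Foxh1, a DNA-binding partner of SMAD2 and SMAD3, was 2.03-fold higher (1.02 ± 0.013), with 325 and 347 in ESlncRNA RNA, against 159 and 172 in vector RNA. Runx1, a blood transcription factor that binds SMADs, was 1.66-fold lower (-0.73 ± 0.026).

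The list of ID partners, E proteins and class II helix-loop-helix factors also holds genes that are not direct partners of ID proteins. Of its 30 genes 20 were tested, with 9 lower and 6 higher (median -0.08, and 5 lower and 11 higher with median centring). Over all genes tested, 36.8% were lower and 26.3% higher. Ascl2, a class II helix-loop-helix factor, was 4.59-fold lower (-2.20 ± 0.0088, SD, n = 2 arrays), with 118 and 116 in ESlncRNA RNA, against 542 and 530.0 in vector RNA. Hes6 was 1.76-fold lower and Ets1 1.56-fold lower. Lyl1, a close relative of Tal1, was 1.67-fold lower with loess and turned to 0.15 with median centring. The E proteins themselves and Tal1, which the rule for named genes did not select, were singled out after their values were seen. Tal1 was 1.43-fold higher (0.52 ± 0.035, limma adjusted p = 1.69e-04), with 11998 and 11273 in ESlncRNA RNA, against 8522 and 7740 in vector RNA. Tcf12 was 1.37-fold higher (adjusted p = 3.00e-04) and Tcf3 1.24-fold higher (adjusted p = 0.00213). These 3 kept a positive sign under each scaling, while Tcf4 did not pass (-0.09, adjusted p = 0.156) and turned positive with median centring and with processed signals.

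Known targets of BMP and TGF-beta signalling, apart from the 10 genes, were tested for 28 of 35 genes, with 20 lower and 4 higher (median -0.42, and 12 lower and 7 higher with median centring). Ccn2, a matricellular protein and classical TGF-beta target, was 14.4-fold lower (-3.85 ± 0.10, SD, n = 2 arrays), with 188 and 164 in ESlncRNA RNA, against 2575 and 2486 in vector RNA. Tgfbi, an extracellular matrix protein, was 12.3-fold lower. Fn1 (fibronectin) was 5.64-fold lower and Col1a1, a chain of collagen I, 5.18-fold lower. These 4 were lower under each scaling. Col1a1 is also on the stromal marker list below.

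**Figure D4:**
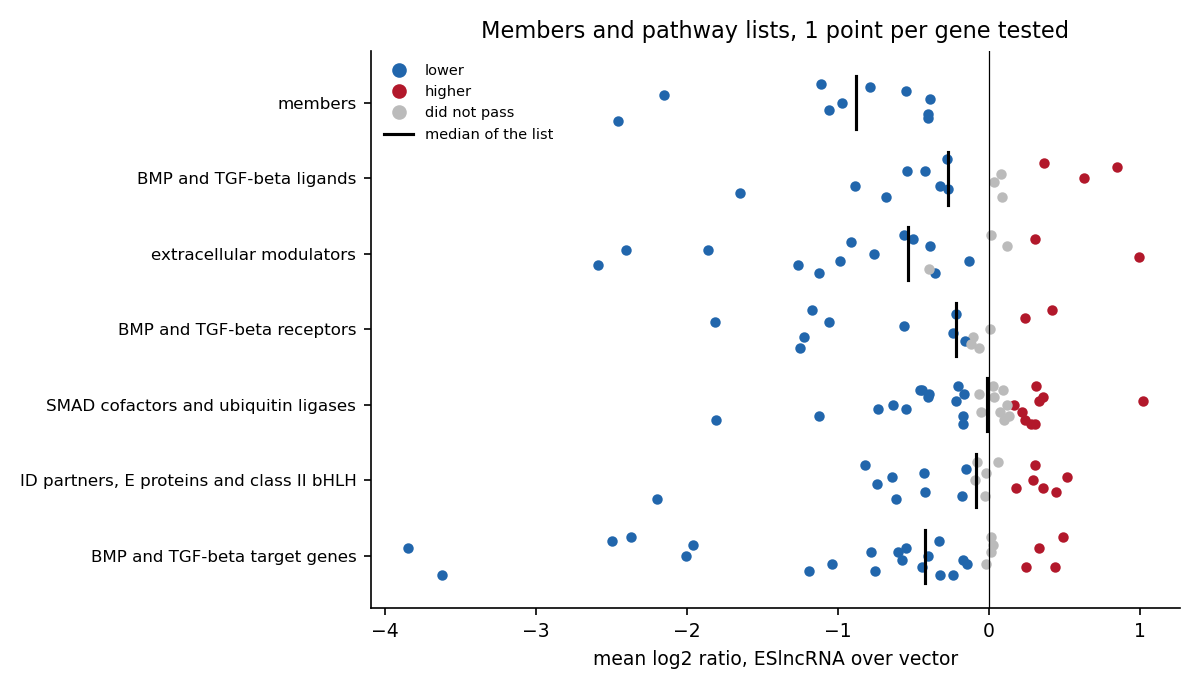
Mean log2 ratio of ESlncRNA over vector (x axis), 1 point per gene tested, for the 10 genes and the 6 pathway lists, coloured by whether the gene was lower, higher or did not pass, with the median of each list as a bar. With the loess normalisation shown, all 10 genes lie below 0 (median -0.88; Smad3, Smad4 and Tgfb1 lie above 0 with median centring), while the lists spread over both sides, with medians from -0.53 to -0.01.

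Markers of other blood and liver cell types differed between the same samples, and their part in the results above was not tested. Defining erythroid genes were well above background on 1 or both arrays in both conditions, and 14 of the 19 tested were higher and 3 lower. Their summed normalised intensity was 573358 and 523278 in ESlncRNA RNA, against 389092 and 347345 in vector RNA. Such sums, here and below, weigh bright probes most. Of the 573358, Hba-a1 gave 184316 and Car2 gave 106245. Car2 was 2.02-fold higher and Gfi1b 1.99-fold higher. Slc4a1 (log2 ratios -0.45 and 1.48) and Alas2 (-0.02 and 0.77), picked after their values were seen, differed widely between the arrays and did not pass. Their vector intensities were 2221 and 322 for Slc4a1, and 1774 and 585 for Alas2. Granulocyte markers were lower in 17 of 17, with sums of 71646 and 85440 in ESlncRNA RNA, against 1226810 and 1362828 in vector RNA. Chil3 and S100a8 were 44.8-fold and 43.0-fold lower, and 1 of the 17, Cd177, was not well above background in ESlncRNA RNA. All 17 were well above background on 1 or both arrays in the vector RNA, which the labels give as lineage-negative erythroid progenitors. These counts are with loess, by which 36.8% of all genes tested were lower and 26.3% higher. With median centring, 16 erythroid genes were higher and 0 lower, and 16 granulocyte markers were lower and 1 higher. When both channels had to be above background, 14 erythroid genes were higher and 3 lower, and 16 granulocyte markers were lower and 0 higher.

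Macrophage markers were lower in 14 of 14, with sums of 5915 and 6348 in ESlncRNA RNA, against 20856 and 20971 in vector RNA, and 6 of them, Adgre1 and Cd68 included, were not well above background in ESlncRNA RNA. Fcgr3 was 15.3-fold and Csf1r 9.90-fold lower. Megakaryocyte and platelet markers were lower in 16 of 16 (32756 and 32414 in ESlncRNA RNA, against 111119 and 108312 in vector RNA), with Plek 6.31-fold and Fli1 5.78-fold lower. Stem and early progenitor markers were lower in 15 of 15 (7647 and 8289 in ESlncRNA RNA, against 44990 and 47862 in vector RNA), with Cd34 18.6-fold and Meis1 8.11-fold lower, and 4 were not well above background in ESlncRNA RNA. With median centring, macrophage markers were 13 lower and 1 higher, megakaryocyte and platelet markers 14 and 2, and stem markers 14 and 0. Markers not well above background in ESlncRNA RNA entered the test through the vector signal alone. When both channels had to be above background, 8 macrophage, 16 megakaryocyte and platelet and 10 stem markers were lower, and 0 were higher.

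Mast cell, basophil and eosinophil markers were lower in 12 of 13 and higher in 1 (20557 and 20957 in ESlncRNA RNA, against 59448 and 61701 in vector RNA), with Ear2 20.2-fold and Ear1 at least 9.98-fold lower. Endothelial and stromal markers were lower in 16 of 18 (8776 and 9008 in ESlncRNA RNA, against 21033 and 20747 in vector RNA), with Sparc 8.42-fold and Col4a1 at least 5.76-fold lower, and 7 of them, Cdh5 and Tek included, were not well above background in ESlncRNA RNA. Hepatocyte markers were lower in 9 of 11, with Trf 7.54-fold and Ahsg 3.12-fold lower (sums 3240 and 3100 in ESlncRNA RNA, against 9368 and 8558 in vector RNA). Lymphocyte markers were lower in 5 of 7 and higher in 2, with Cd79b 11.6-fold and Lck 1.88-fold lower (sums 1371 and 1319 in ESlncRNA RNA, against 3244 and 3124 in vector RNA). Not well above background in ESlncRNA RNA were 4 of the mast cell, basophil and eosinophil markers, 3 hepatocyte markers and 2 lymphocyte markers. With median centring, mast cell, basophil and eosinophil markers were 11 lower and 1 higher. Endothelial and stromal markers were then 14 and 2, hepatocyte markers 7 and 1, and lymphocyte markers 5 and 2. When both channels had to be above background, mast cell, basophil and eosinophil markers were 8 lower and 1 higher. Endothelial and stromal markers were 9 and 0 by that filter, hepatocyte markers 6 and 0, and lymphocyte markers 3 and 2. The ID and SMAD genes are expressed in many of these cell types.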

How the data were processed

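Total RNA was amplified, labelled with Cy5 (ESlncRNA) or Cy3 (vector) and hybridised to 2 two-colour arrays, per the labels' protocols. Scans were read by Feature Extraction (version 10.1.1.1 per the file headers). The deposited spot intensities used here are each channel's mean signal and median local background, with nothing subtracted. The software's processed intensities served as an alternative, and its deposited log10 ratios of Cy5 over Cy3 as a check of direction (r = 0.985 and 0.992 with the processed intensities). The authors also deposited log2 values, for which the submitters' processing notes name limma without a version. They matched loess log2 ratios made here without background subtraction (r over 0.99, median absolute difference 0.00369 and 0.00314), which gave their scale and direction, and had medians of -0.02 and -0.01.

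Here signals were corrected with normexp (offset 50) and normalised by loess, with control and marked spots at weight 0 (R 4.3.3, limma 3.58.1). Spots of a probe were averaged, and a probe was tested if 1 channel or both stood well above background on each array. A gene stood by its brightest such probe. The mean ratio was tested in limma (residual degrees of freedom 1, prior 5.27), and p-values were adjusted by Benjamini-Hochberg over all probes tested. Normalised intensities are those after loess and between-array scaling (Aquantile). The bounds given as "at least" are open to dye bias. Marked spots numbered 284 and 308 of 59305, and 0 were saturated. Well above background were 45.6% and 44.4% of spots in ESlncRNA RNA and 52.1% and 49.1% in vector RNA. The number of arrays limits the precision. Over 120 probes that each array carries in 10 unmarked spots, the median difference between arrays (0.0240 on the log2 scale) was close to what the spread between spots gives (0.0247). That median does not speak for single genes, of which Slc4a1 and Alas2 above differed far more. The arrays shared a slide and a scan, so neither could be tested as a batch. Probes were named through RefSeq accessions where possible (26413) and otherwise by symbol.

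Named were the 10 genes with all their probes, the 4 genes of each pathway list and the 2 of each marker list with the smallest p, the 3 genes nearest to the most lowered of the 10, and genes marked in the text as chosen later. The 10 genes and the lists were chosen with earlier results of these data known. Alternatives were other background corrections and scalings, other filters, the mean of a gene's probes, no replicate block, and each array alone. Array coordinates are on mm9.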

Additional observations from a re-analysis of the deposited data

How the results depend on the processing

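The count of lower genes among the 10 stayed at 10 without background subtraction, with offset 0, with no filter, with probes of a gene averaged and with no replicate block. It was 9 with processed signals, 7 with median centring, and 8 of 8 tested when both channels had to be above background. Higher calls numbered 0 under each of these settings. With median centring 2 of the 10 were at least 2-fold lower on both arrays by measured ratio, 44 pathway genes were lower and 51 higher, and Smad3 (0.094), Smad4 (0.14) and Tgfb1 (0.072) changed sign. The median of all genes there ran from 0.02 in the dimmest to 0.78 in the brightest of 5 bins. With no replicate block, so that each channel counted as its own sample, 58 pathway genes were lower and 21 higher, and 5732 and 3446 of all genes. On each array alone, 4 to 4 of the 10 were at least 2-fold lower by measured ratio (Smad1 among them in the fit of both arrays), a value with no test. Of the log2 ratios of the 10 genes under alternatives with a test, 74 kept direction and side of the threshold, 3 reversed and 1 was weaker. Many of the 74 could not reverse. The other filters and the fit with no replicate block used the same ratios as the main fit. Averaging of probes did so for genes with 1 kept probe. All 3 reversals were with median centring. The 20 log2 ratios from each array alone have no test, and with 2 arrays their distance from the mean is a fixed part of the SD. Smad1 and Smad6 ranged most, since their ESlncRNA signal was near background: without background subtraction they were at -1.52 and -1.31, and with offset 0 at -2.44 and -1.90. With probes of a gene averaged, Smad1, Smad4 and Smad5 were at -0.67, -0.56 and -0.44.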

Other observations

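Id1 was at -2.59 and -2.53 in the authors' deposited table, and Id2 at -2.29 and -2.28. Smad1 (-1.6 and -1.44), Id3 (-1.37 and -1.22) and Smad6 (-1.32 and -1.3) were lower in the authors' deposited table than in the main ratios made here with normexp. With loess and no background subtraction, which matched the deposited values, the mean ratios made here were -1.52, -1.29 and -1.31. Smad3 was at -0.43 and -0.43 in the authors' deposited table, the highest mean of the 10 except Smad4 (-0.4 and -0.45).

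Over the 2 arrays, the genes whose pair of log2 ratios lay nearest to that of Id1 were Dusp6, a phosphatase of ERK (-2.46 and -2.43, Euclidean distance 0.0186), Arhgap31, a GTPase-activating protein (-2.51 and -2.44, 0.0317), and Slc17a9, a vesicular nucleotide transporter (-2.51 and -2.41, 0.0365). With 2 arrays such nearness says only that the sizes are alike.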
